A study of Mus musculus with 3 samples.

Results

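The type I interferon antiviral response was followed through 9 genes of the skin of C3H/HeN mice with and without alopecia areata (AA): *Isg15*, *Ifit1*, *Ifit3*, *Rsad2*, *Oasl1*, *Oasl2*, *Oas1a*, *Usp18* and *Irf7*. They were listed by name, with earlier results of these data known, and make up 9 of the 32285 genes in the count files. Their unique molecular identifiers (UMIs, the tags that count each captured mRNA molecule a single time) were summed over the cells with at most 10% mitochondrial UMIs and at least 200 genes, by library and by cell class. Each of the 3 groups was 1 droplet library made from the pooled dorsal skin of 7 to 8 female C3H/HeN mice aged 25 weeks. The group named Neg was labelled as a vehicle control and described as unaffected. The AA group carried the model in which lymph node cells from mice with AA are expanded in culture and injected into the skin of healthy C3H/HeN mice. The AA+Ab group had the same model and received an antibody that neutralizes the chemokine CXCL12. The dose and schedule of the antibody are not given in the sources used here. With 1 library per group, no test between groups was possible, and the differences between groups cannot be told apart from differences between pools or captures.

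Type I interferons (the interferon alpha, beta, epsilon and kappa proteins) bind a receptor of the chains IFNAR1 and IFNAR2, and interferon lambda reaches the same signal through another receptor. The receptor's kinases then activate transcription factors, among them IRF9, that bind a DNA element, the interferon-stimulated response element (ISRE), upstream of the target genes. Interferon gamma has its own receptor and shares a part of these targets. *Isg15* encodes a ubiquitin-like protein that is attached to other proteins, and *Usp18* the protease that removes it and that also dampens signalling at the receptor. *Ifit1* encodes a protein that binds viral RNA and *Ifit3* its partner, and *Rsad2* encodes viperin, an enzyme that makes a chain-terminating nucleotide. *Oas1a* belongs to the sensors of double-stranded RNA that switch on RNase L, *Oasl1* and *Oasl2* are its relatives, and *Irf7* is the factor that amplifies interferon production. AA is a T-cell attack on the growing hair follicle, in which an interferon response, above all to interferon gamma, is known.

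The 9 genes lie at 7 places in the mouse genome (GRCm38, GENCODE vM21). *Isg15* is at chr4:156199424-156200818 on the minus strand, *Rsad2* at chr12:26442746-26456452 on the minus strand, *Usp18* at chr6:121245906-121270917 on the plus strand and *Irf7* at chr7:141262706-141266481 on the minus strand. *Ifit3* (chr19:34583531-34588731) and *Ifit1* (chr19:34640871-34650009) are neighbours on the plus strand, and so are *Oasl2* (chr5:114896936-114912234) and *Oasl1* (chr5:114923240-114937915). *Oas1a* is at chr5:120896256-120907521 on the minus strand. All are protein-coding. A 3′ library reads the end of a transcript, and 64.1% of the 50-base words in the last 600 bases of the *Oas1a* transcripts also occur in *Oas1g*, so *Oas1a* counts are uncertain between these copies. For *Ifit3* the share was 18.0%, all with *Ifit3b*, for *Isg15* 5.08%, and for the other 6 genes no word was shared. *Oas1g* itself had 25 UMIs in Neg, 105 in AA and 38 in AA+Ab, and *Ifit3b* had 11, 72 and 12, so both copies were also highest in AA. Genes on the opposite strand overlap *Oasl1*, *Usp18* and *Irf7*.

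The promoters of members are shown because target genes of interferon can carry an ISRE upstream, and the letters let a match be read directly. The RefSeq promoter table (GRCm38.p6) holds 8 of the 9 genes, all but *Usp18*, each from 250 bases before to 50 bases after the start site. The core of the ISRE, here GAAA, any 2 bases and GAAA again, searched on both strands, occurred in 5 of these 8 promoters (62.5%) and in 1079 of 27025 genes with a promoter in the table (3.99%). Of the other gene lists used below, it occurred in 11 of 20 interferon genes (55%) and 9 of 17 interferon gamma readouts (52.9%). It also occurred in 11 of 21 other antiviral effectors (52.4%), 4 of 13 nucleic acid sensors and their signalling genes (30.8%) and 2 of 12 receptor and signalling genes (16.7%). The core was thus not particular to the members. The promoters of members with a match are given 5′ to 3′ along the gene, with every matching base in capitals.
Isg15 (chr4:156200769-156201068, minus strand): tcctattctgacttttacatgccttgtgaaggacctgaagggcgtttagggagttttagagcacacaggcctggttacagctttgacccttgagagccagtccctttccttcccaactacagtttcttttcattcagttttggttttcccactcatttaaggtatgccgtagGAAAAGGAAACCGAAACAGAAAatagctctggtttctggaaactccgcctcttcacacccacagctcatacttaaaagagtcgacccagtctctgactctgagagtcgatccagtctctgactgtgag
Ifit1 (chr19:34640639-34640938, plus strand): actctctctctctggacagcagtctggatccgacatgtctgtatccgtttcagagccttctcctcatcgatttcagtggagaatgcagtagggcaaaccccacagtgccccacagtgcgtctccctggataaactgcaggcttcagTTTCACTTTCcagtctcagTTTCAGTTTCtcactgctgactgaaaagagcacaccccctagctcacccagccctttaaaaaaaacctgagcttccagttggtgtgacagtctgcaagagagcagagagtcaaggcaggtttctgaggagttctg
Ifit3 (chr19:34583279-34583578, plus strand): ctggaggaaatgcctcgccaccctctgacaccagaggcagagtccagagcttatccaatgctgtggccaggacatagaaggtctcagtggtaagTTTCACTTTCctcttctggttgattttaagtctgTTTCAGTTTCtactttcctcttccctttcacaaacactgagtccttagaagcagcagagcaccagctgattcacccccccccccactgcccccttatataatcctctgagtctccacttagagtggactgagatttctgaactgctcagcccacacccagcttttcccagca
Rsad2 (chr12:26456403-26456702, minus strand): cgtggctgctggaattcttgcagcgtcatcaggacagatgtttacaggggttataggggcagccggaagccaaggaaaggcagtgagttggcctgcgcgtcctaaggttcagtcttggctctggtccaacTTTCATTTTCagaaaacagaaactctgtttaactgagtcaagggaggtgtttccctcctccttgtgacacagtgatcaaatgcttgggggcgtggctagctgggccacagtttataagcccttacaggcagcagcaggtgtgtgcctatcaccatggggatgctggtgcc
Oas1a (chr5:120907476-120907775, minus strand): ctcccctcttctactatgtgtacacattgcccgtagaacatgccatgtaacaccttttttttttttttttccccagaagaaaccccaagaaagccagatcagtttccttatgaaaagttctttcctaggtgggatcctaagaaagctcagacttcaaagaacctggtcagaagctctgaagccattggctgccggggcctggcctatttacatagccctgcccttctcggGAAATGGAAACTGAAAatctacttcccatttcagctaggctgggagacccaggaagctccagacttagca
The 3 matches of *Isg15* overlap and start 78, 72 and 66 bases before the start site, and the 2 of *Oas1a* overlap and start 20 and 14 bases before it. In *Ifit1* the matches start 104 and 85 bases before the start site, in *Ifit3* 156 and 122 bases before it and in *Rsad2* 120 bases before it, all as the reverse form. *Ifit1* and *Ifit3* carry the same pair of words, TTTCACTTTC and then TTTCAGTTTC, at different spacing. *Oasl1*, *Oasl2* and *Irf7* had no match to these letters in this window. A match is a description of the letters and not a measured binding site.

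The libraries held 121289374 to 141998364 UMIs, and the filter kept 6582 Neg, 10433 AA and 9832 AA+Ab cells with medians of 13694.5, 11177 and 11371 UMIs. Between 14 and 23 cell barcodes were shared by a pair of libraries. Cells scored as doublets were 5.58% of Neg, 8.70% of AA and 8.40% of AA+Ab cells, and they stay in the library sums but not in the cell classes. Keratinocytes were 79.7% to 81.7% of the cells, with UMIs of all 12 keratinocyte markers in every library, as skin should have. Free RNA was judged from skeletal muscle cells, of which 3 of 49 in Neg (6.12%), 4 of 51 in AA (7.84%) and 3 of 41 in AA+Ab (7.32%) held a UMI of any member, at medians of 4035, 2828 and 1958 UMIs per cell. Values are counts per 1000000 UMIs of the same cells (CPM) with exact Poisson 95% intervals, and ratios of CPM have exact conditional 95% intervals. These intervals cover counting error only, and they are too narrow wherever a few cells hold many of the UMIs.

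Over all cells, the 9 genes together were higher in AA than in both other libraries. Their summed CPM was 30.3 (29.3 to 31.3) in Neg from 3612 UMIs, 77.2 (75.7 to 78.7) in AA from 10471 UMIs and 29.4 (28.5 to 30.3) in AA+Ab from 4110 UMIs. The ratio was 2.55 (2.45 to 2.65) for AA over Neg, 0.381 (0.368 to 0.395) for AA+Ab over AA and 0.971 (0.928 to 1.02) for AA+Ab over Neg. The share of cells with a UMI of any member was 26.8%, 34.3% and 21.2%, at a higher depth per cell than the muscle cells. With every cell thinned to 1000 UMIs, it was 3.34%, 6.16% and 3.33%, and the AA library was again the highest. No thinned muscle cell held a member UMI (37 Neg, 42 AA and 28 AA+Ab cells). At such shares, so few cells cannot show that muscle lay below all cells. Per UMI, muscle had 5.23 (1.08 to 15.3), 12.6 (3.44 to 32.3) and 11.1 (2.28 to 32.3) CPM, and the interval of AA+Ab holds the level of all AA+Ab cells. In the thinned count, which gives every cell the same weight, the ratio of AA over Neg was 1.77 and that of AA+Ab over AA was 0.605.

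Past a fold of 2, taken here in place of a test, 8 of the 9 genes were higher in AA than in Neg and none lower, where 3.17% of the 19482 genes with at least 20 UMIs over both libraries were higher and 3.71% lower. *Usp18* was the exception, at 1.90 (1.79 to 2.02). Of AA+Ab against AA, 8 of the 9 were lower by 2-fold or more (background 4.09%) and none higher (background 2.58%), and *Oasl1* stood at the limit with a ratio of 0.501 (0.396 to 0.630). The count was 5 with the mean over cells of each cell's CPM and 4 after thinning. The median ratio of the 9 genes was 3.10 for AA over Neg and 0.391 for AA+Ab over AA, against 0.957 and 1.00 over all genes tested. Since the members were chosen with earlier results of these data known, their counts beside the background are a description.

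**Figure D1:**
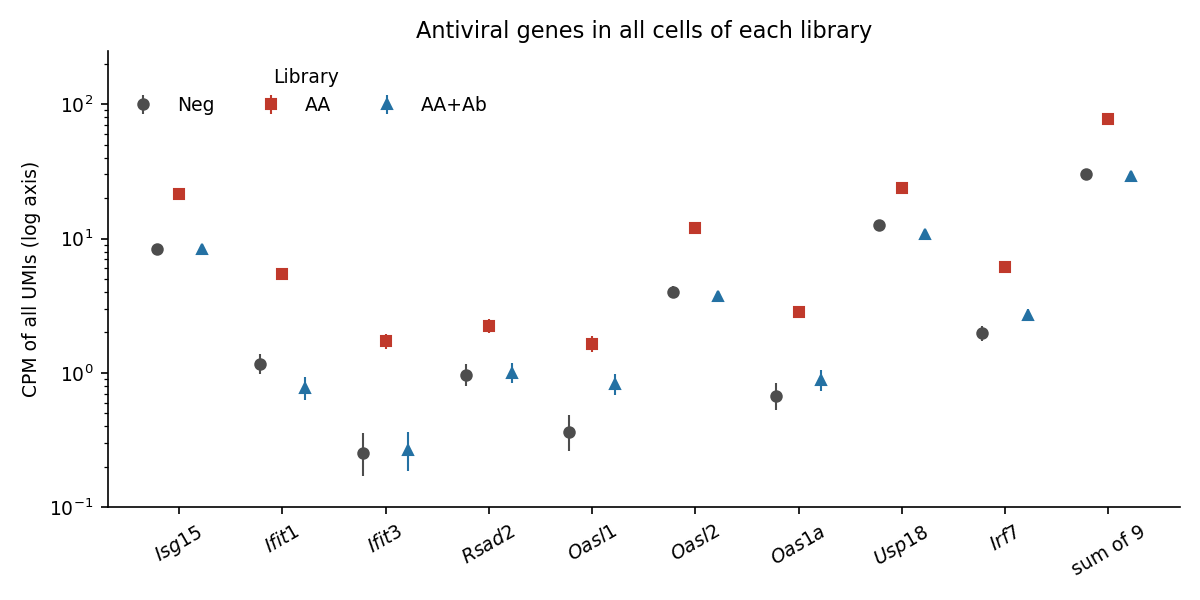
CPM of each of the 9 genes and of their sum (log axis) in all cells of the Neg (circles), AA (squares) and AA+Ab (triangles) libraries, with bars for the exact Poisson 95% interval. AA is the highest of the 3 libraries for every gene, and Neg and AA+Ab lie close together for most, with *Oasl1* at 0.361 and 0.823 CPM the widest apart.

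*Isg15* and *Usp18*, the modifier and the protease that removes it, supplied most of the UMIs of the sum. *Isg15* had 8.34 CPM in Neg (7.83 to 8.87), 21.4 in AA (20.6 to 22.2) and 8.36 in AA+Ab (7.88 to 8.85), found in 6.14%, 9.16% and 4.91% of cells. It was 2.56 times as high in AA as in Neg (2.39 to 2.76), and Neg and AA+Ab did not differ beyond counting error. *Usp18* had 12.5, 23.8 and 10.9 CPM, in 15.8%, 20.8% and 11.5% of cells, with a ratio of 0.456 (0.429 to 0.485) for AA+Ab over AA. It gave 41.3% of all member UMIs in Neg, 30.8% in AA and 36.9% in AA+Ab, so its weight in the sum was lowest where the sum was highest. *Isg15* kept 27.5%, 27.7% and 28.4% of the sum.

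The RNA-binding *Ifit* genes differed most between the libraries. *Ifit1* stood at 1.17 CPM in Neg (0.988 to 1.39), 5.42 in AA (5.04 to 5.83) and 0.773 in AA+Ab (0.634 to 0.934). Its ratio was 4.61 (3.85 to 5.57) for AA over Neg and 0.143 (0.115 to 0.175) for AA+Ab over AA, and AA+Ab was below Neg at 0.658 (0.507 to 0.852). *Ifit3* rested on 30, 233 and 37 UMIs, which is 0.252, 1.72 and 0.265 CPM. That gave the highest ratio of the 9 genes for AA over Neg, 6.83 (4.66 to 10.3), and 0.154 (0.106 to 0.219) for AA+Ab over AA. The viperin gene *Rsad2* had 0.973 CPM in Neg, 2.24 in AA and 1.00 in AA+Ab, a ratio of 2.30 (1.85 to 2.88) for AA over Neg, and Neg and AA+Ab overlapped. *Ifit3* and *Rsad2* UMIs came from few cells, 21 and 25 in Neg, 88 and 80 in AA and 18 and 39 in AA+Ab.

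Of the oligoadenylate synthetase family, *Oasl2* was found in the most cells, 4.68% in Neg, 8.68% in AA and 3.64% in AA+Ab. It had 4.04, 12.0 and 3.75 CPM, 2.98 times as high in AA as in Neg (2.69 to 3.31), and 0.312 (0.282 to 0.344) for AA+Ab over AA. *Oas1a* had 0.671 CPM in Neg, 2.83 in AA and 0.881 in AA+Ab, and its ratio of AA over Neg was 4.22 (3.31 to 5.44). *Oasl1*, which in mice is known as a brake on *Irf7* translation, had 0.361, 1.64 and 0.823 CPM. It was the 1 member past 2-fold in AA+Ab over Neg, at 2.28 (1.59 to 3.32), where 2.03% of all genes tested were higher and 3.64% lower by as much. No member passed in that comparison once the highest cell of each library was left out. *Irf7*, the amplifier, had 1.98, 6.14 and 2.72 CPM, 3.10 times as high in AA as in Neg (2.68 to 3.60) and above Neg in AA+Ab at 1.37 (1.17 to 1.62). Its interval and that of *Oasl1* excluded 1 from above in AA+Ab over Neg, those of *Ifit1* and *Usp18* from below, and the other 5 held 1.

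The UMIs of these genes were gathered in few cells. Cells with at least 10 UMIs of the 9 genes numbered 31 in Neg (0.471%; exact Clopper-Pearson 95% interval 0.320 to 0.668), 168 in AA (1.61%; 1.38 to 1.87) and 39 in AA+Ab (0.397%; 0.282 to 0.542). Cells with at least 20 numbered 7, 63 and 12. The 1% of cells with the most member UMIs held 26.5% of them in Neg, 29.8% in AA and 30.3% in AA+Ab, while holding 1.61%, 1.52% and 1.08% of all UMIs. The share differed by gene. For *Usp18*, spread over many cells, the top 1% of cells held 16.9%, 14.8% and 21.3%. For *Ifit3*, *Rsad2* and *Oasl1* they held all UMIs in every library, which had to be so because these genes were found in under 1% of cells. At least 3 of the 9 genes were found together in 1.06% of Neg cells, 4.14% of AA cells and 0.875% of AA+Ab cells, and at least 5 in 0.137%, 1.06% and 0.183%.

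**Figure D2:**
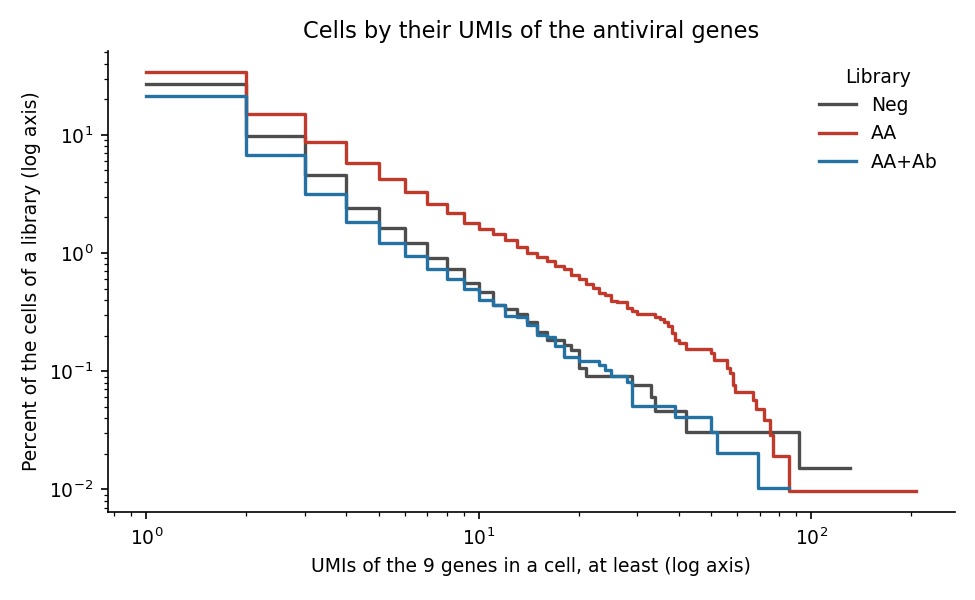
Percent of the cells of a library (log axis) with at least the number of UMIs of the 9 genes on the horizontal axis (log axis), as step lines for Neg, AA and AA+Ab. The AA line lies above both others from 1 UMI to 50 UMIs, and at 10 UMIs it stands at 1.61% against 0.471% and 0.397%. Beyond 50 UMIs the lines rest on 2, 15 and 3 cells.

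Cells were clustered over the 3 libraries together without the 110 genes of the interferon lists, so that the members did not set the classes, although other genes that respond to interferon remained. In keratinocytes, the cells of the epidermis and follicle, the summed CPM was 25.9 (24.9 to 26.9) in 5380 Neg cells, 69.7 (68.1 to 71.2) in 8315 AA cells and 21.7 (20.9 to 22.6) in 7897 AA+Ab cells. The ratio of AA over Neg was 2.69 (2.57 to 2.81), that of AA+Ab over AA 0.312 (0.298 to 0.326) and that of AA+Ab over Neg 0.839 (0.794 to 0.886). Of the 9 genes, 7 were higher in AA than in Neg by 2-fold or more (background 2.24%) and none lower (background 3.57%), and all 9 were lower in AA+Ab than in AA by 2-fold or more (background 3.83%; 1.9% of genes were higher). For AA+Ab over Neg, none of the 8 members with enough UMIs passed 2-fold, against 1.26% of genes higher and 3.92% lower. T-cell markers summed to 31.5 CPM in Neg keratinocytes, 21.7 in AA and 29.1 in AA+Ab, with all 7 markers found. The 8 dendritic cell and macrophage markers summed to 22.4, 101 and 37.6 CPM, with none at 0. Among these 8 were the interferon-inducible MHC class II genes *H2-Aa*, *H2-Ab1* and *Cd74*. The part of either marker list in the result was not tested.

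By gene, *Ifit3* in keratinocytes had 3 UMIs in Neg, 166 in AA and 1 in AA+Ab. Its ratio of AA over Neg was 49.6 with an interval of 16.7 to 243, and the AA UMIs lay in 0.553% of the cells. *Ifit1* had 49, 524 and 46 UMIs, or 0.481, 4.61 and 0.394 CPM, which gave 9.59 (7.15 to 13.1) for AA over Neg and 0.0855 (0.0618 to 0.116) for AA+Ab over AA. Of the 49 Neg UMIs of *Ifit1*, 30 lay in 1 cell. *Rsad2* had 0.186, 1.42 and 0.248 CPM, and AA was the highest at 7.60 times Neg (4.71 to 12.9). *Oasl1* had only 13, 24 and 12 UMIs in all keratinocytes, and its ratio of 1.66 held 1 (0.810 to 3.54). *Usp18* was found in 16.6%, 22.1% and 11.8% of keratinocytes, the widest spread of the members, at 12.6, 24.0 and 10.6 CPM. *Isg15* (6.63, 18.9 and 4.35 CPM), *Oasl2* (3.56, 11.2 and 3.08), *Oas1a* (0.618, 2.50 and 0.779) and *Irf7* (1.65, 5.40 and 2.14) were all highest in AA, by ratios of 2.85 to 4.04 over Neg. In AA+Ab against Neg, *Isg15* was lower at 0.656 (0.583 to 0.737) and *Irf7* higher at 1.30 (1.06 to 1.59).

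The largest difference of any class with over 100 cells in each library was in upper hair follicle keratinocytes, the *Krt79*-positive cells of the infundibulum and its junction with the sebaceous gland. Their summed CPM was 16.1 (13.2 to 19.5) in 211 Neg cells, 227 (213 to 241) in 283 AA cells and 17.8 in 417 AA+Ab cells. AA was 14.1 times Neg (11.5 to 17.4) and AA+Ab 0.0785 times AA (0.0652 to 0.0940), while Neg and AA+Ab did not differ beyond counting error. In Neg, none of these cells held a UMI of *Ifit1*, *Ifit3*, *Rsad2* or *Oasl1*, and 0 UMIs allow up to 0.461 CPM (3 counts). AA had 141 UMIs of *Ifit1*, 72 of *Ifit3* and 28 of *Rsad2*, at least 71.8-fold, 36.7-fold and 14.3-fold higher than that limit. *Oasl2* was 54.6 times as high in AA as in Neg (20.9 to 203, from 4 Neg UMIs), *Oas1a* 14.3 times (from 3 Neg UMIs, 4.41 to 73.3), *Irf7* 12.1 times (6.23 to 26.2), *Isg15* 8.92 times (6.87 to 11.7) and *Usp18* 5.97 times (3.66 to 10.2). The class held 2.71% of AA cells and 9.23% of the AA member UMIs. In AA, 37 of its 283 cells (13.1%) held at least 3 of the 9 genes. Those cells held 84.2% of the AA member UMIs of the class. A UMI of any member was found in 21.3% of the Neg, 36.4% of the AA and 17.7% of the AA+Ab cells of the class.

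A single AA cell held 207 of the 966 UMIs of this class, the most of any cell in the 3 libraries. It had 60220 UMIs in all, with 88 of *Krt14*, 59 of *Krt5*, 13 of *Cd3e*, 7 of *Cd3d* and 15 of *Ptprc*, and so held keratinocyte and T-cell transcripts together. It also had 533 UMIs of *Cxcl10*, the chemokine that draws CXCR3-bearing T cells. Without the highest cell of each library the ratio of AA over Neg was 12.7 (10.3 to 16.0) and that of AA+Ab over AA 0.0793 (0.0643 to 0.0970). It held 33 of the 72 *Ifit3* UMIs, and without it *Ifit1*, *Ifit3* and *Rsad2* were at least 58.7-fold, 20.1-fold and 10.8-fold higher in AA than the limit in Neg. Another AA cell of the class, with 76 member UMIs and 201 of *Cxcl10*, held 10 of the 11 UMIs of *Ifnl2* and all 4 of *Ifnl3*, the interferon lambda genes, in the data. No UMI of either was found in Neg or AA+Ab.

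**Figure D3:**
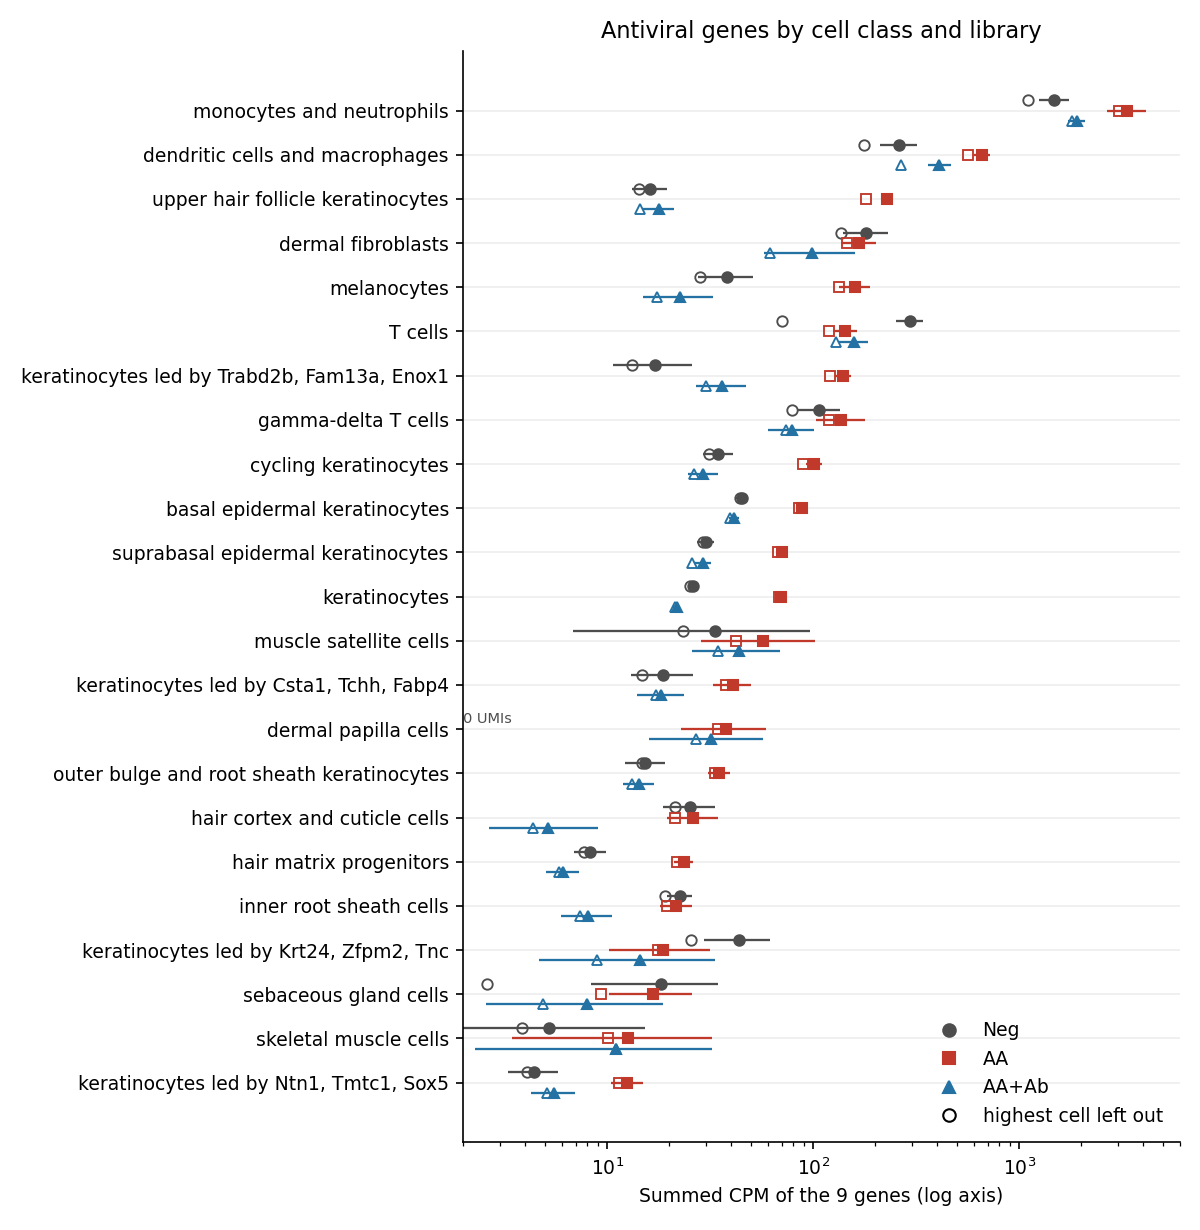
Summed CPM of the 9 genes (log axis) by cell class in Neg, AA and AA+Ab, with bars for the exact Poisson 95% interval, and open symbols for the value without the highest cell of the class in that library. AA lies to the right of both other libraries in most keratinocyte classes, farthest in upper hair follicle keratinocytes (16.1, 227 and 17.8 CPM). Neg dermal papilla cells held 0 UMIs, and the T-cell value of Neg moves from 294 to 70.0 CPM when 1 cell is left out.

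AA was also the highest library in other keratinocyte classes, with smaller ratios. Keratinocytes led by *Trabd2b*, *Fam13a* and *Enox1* had 16.9 CPM in 101 Neg cells, 139 in 301 AA cells and 35.9 in 137 AA+Ab cells, a ratio of 8.21 (5.36 to 13.2) for AA over Neg. There, *Isg15* had 1, 204 and 14 UMIs and *Oasl2* 0, 82 and 8, the latter at least 9.82-fold higher in AA than the limit in Neg. Basal epidermal keratinocytes, which line the basement membrane and renew the epidermis, had 45.0 (42.3 to 47.9), 88.0 (84.4 to 91.6) and 41.1 (38.8 to 43.6) CPM. In them *Usp18* had 30.9, 44.5 and 24.0 CPM, a ratio of 1.44 (1.31 to 1.58) for AA over Neg, and *Ifit1* was 13.9 times as high in AA (7.12 to 31.0). Suprabasal cells, the next layers outward, had 30.0, 70.2 and 29.0 CPM, and cycling keratinocytes 34.5, 101 and 29.2. Outer bulge and root sheath keratinocytes, which include the follicle stem cells, had 15.3, 34.9 and 14.2 CPM, and hair matrix progenitors, the dividing cells of the bulb, 8.25, 23.5 and 6.09. The intervals of AA did not overlap those of Neg or AA+Ab in any of these classes.

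Inner root sheath cells and hair cortex and cuticle cells differed little between Neg and AA and were lowest in AA+Ab. Inner root sheath cells had 22.5 (19.6 to 25.7), 21.5 (17.9 to 25.7) and 8.01 (5.96 to 10.5) CPM, and the ratio of AA over Neg was 0.957 (0.761 to 1.20). Hair cortex and cuticle cells had 25.2, 26.1 and 5.15 CPM, 1.04 (0.686 to 1.57) for AA over Neg and 0.197 (0.0959 to 0.375) for AA+Ab over AA. *Isg15* supplied most of these UMIs, 152 of 212 in Neg inner root sheath cells and 37 of 48 in Neg cortex and cuticle cells. Keratinocytes led by *Csta1*, *Tchh* and *Fabp4* had 18.7, 40.5 and 18.2 CPM. In them *Irf7* had 16.5, 15.1 and 16.4 CPM, 0.916 (0.546 to 1.54) for AA over Neg, while *Isg15* had 3, 36 and 2 UMIs. Keratinocytes led by *Krt24*, *Zfpm2* and *Tnc* had 31, 14 and 5 UMIs of the 9 genes, with 13 of the Neg UMIs, all of *Isg15*, in 1 of 60 cells.

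**Figure D4:**
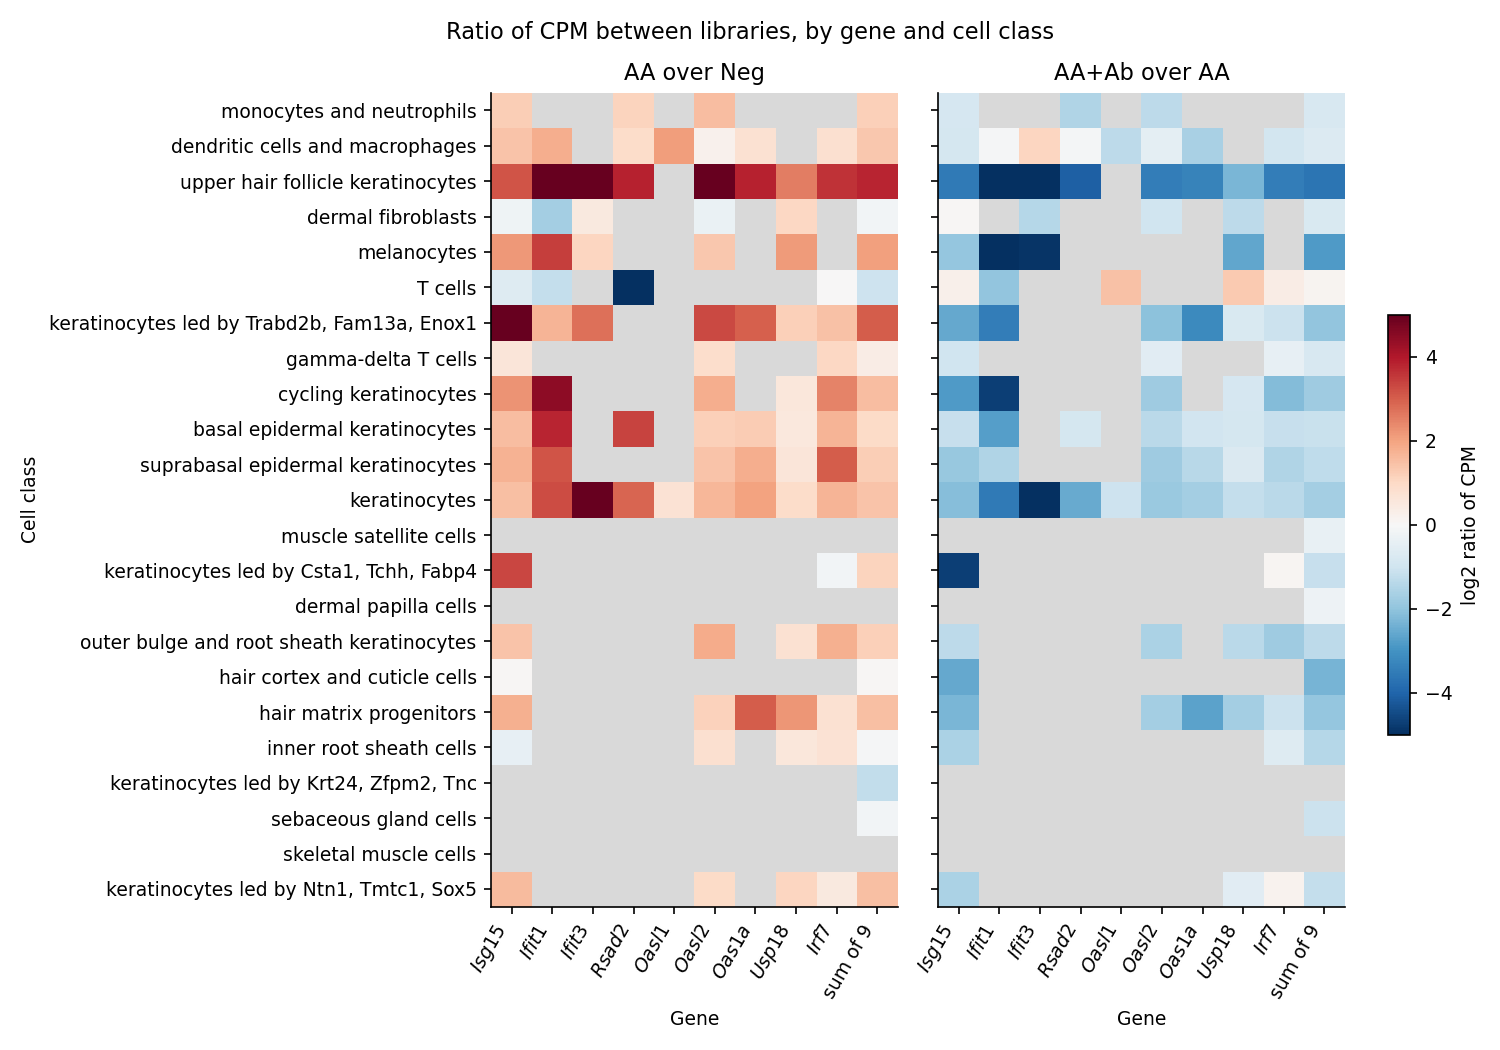
Log2 ratio of CPM for each of the 9 genes and their sum by cell class, for AA over Neg (left) and AA+Ab over AA (right), with red for higher and blue for lower in the library named first. Grey marks under 20 UMIs over both libraries, a library at 0 was set to 3 UMIs, and colours stop at 5 on either side. For the sum, upper hair follicle keratinocytes are the darkest class in both panels, and the inner root sheath row is near white for the sum in AA over Neg (a ratio of 0.957).

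Among immune cells, monocytes and neutrophils had the highest summed CPM of all classes in each library. It was 1472 in 26 Neg cells, 3317 in 10 AA cells and 1900 in 83 AA+Ab cells, a ratio of 2.25 (1.70 to 2.97) for AA over Neg, with few cells behind each value. *Isg15* was found in 73.1%, 90.0% and 83.1% of them. They were 0.395%, 0.0958% and 0.844% of the cells, and gave 3.93%, 0.812% and 10.2% of the member UMIs of their libraries, so this class weighed most in AA+Ab.

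Dendritic cells and macrophages came next in AA and AA+Ab, with 260 (211 to 317) CPM in 56 Neg cells, 660 (603 to 722) in 118 AA cells and 409 (358 to 465) in 111 AA+Ab cells. AA was 2.54 times Neg (2.04 to 3.19). *Oasl1* reached 58.4, 252 and 102 CPM here, 4.31 times as high in AA as in Neg (2.76 to 7.05), and *Rsad2* 63.7, 121 and 112 CPM, 1.90 times (1.20 to 3.12). In AA+Ab, 2 cells held 86 and 68 of the 233 UMIs. The first held all 13 UMIs of *Ifit3* and 36 of the 64 of *Rsad2*, with 57 of *Krt5*, 115 of *Krt14* and 10 of *Ptprc*, and so held keratinocyte and immune transcripts together. A UMI of any member was found in 32.1% of the Neg, 53.4% of the AA and 23.4% of the AA+Ab cells of this class. Without the highest cell of each library the sums were 177, 564 and 265 CPM. *Oasl1* then had 37.5, 185 and 66.7 CPM, 4.94 (2.84 to 9.27) for AA over Neg. *Rsad2* had 2, 81 and 28 UMIs, and its ratio of AA over Neg moved to 20.7 (5.56 to 174). Keratinocyte markers summed to 1858 CPM in Neg, 4376 in AA and 1973 in AA+Ab in this class, with all 12 found in each. B-cell markers, led by *Ighm*, were present in this class with all 5 found and summed to 30376.5 CPM in Neg, 45881 in AA and 123514 in AA+Ab. The part of either marker list in the result was not tested.

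T cells showed how far 1 cell can carry a class. Their sum was 294 (251 to 341) CPM in 100 Neg cells, 142 (124 to 162) in 352 AA cells and 158 (133 to 185) in 210 AA+Ab cells, a ratio of 0.484 (0.394 to 0.594) for AA over Neg. A single Neg cell held 131 of the 171 UMIs, 41 of *Isg15*, 44 of *Ifit1* and 42 of *Rsad2*, with 144 of *Cxcl10*, 5 of *Ptprc* and none of *Cd3e* or *Cd3d*. Without the highest cell of each library the values were 70.0, 119 and 129 CPM, and the ratios turned to 1.69 (1.20 to 2.45) for AA over Neg and 1.84 (1.28 to 2.70) for AA+Ab over Neg. *Irf7* did not rest on that cell and had 18.9, 19.4 and 25.4 CPM in T cells, a ratio of 1.03 for AA over Neg. *Oasl1* had 0, 10 and 17 UMIs. Gamma-delta T cells had 106, 136 and 78.6 CPM, with 1.28 (0.888 to 1.84) for AA over Neg and 0.576 (0.396 to 0.841) for AA+Ab over AA.

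Of the other dermal and pigment cells, dermal fibroblasts had 181 (139 to 230), 166 (136 to 201) and 98.9 (57.6 to 158) CPM in 37, 88 and 25 cells, and Neg and AA did not differ beyond counting error. *Oasl2* gave 21 of their 65 UMIs in Neg and *Ifit3* 20 of 105 in AA. Melanocytes, the pigment cells, had 37.9, 159 and 22.4 CPM in 37, 58 and 62 cells, 4.20 (2.95 to 6.07) for AA over Neg and 0.141 (0.0903 to 0.213) for AA+Ab over AA. Their median depth was 34069, 7059 and 19528.5 UMIs per cell, lowest in AA, and its part in the result was not tested. In AA, 6 of the 58 melanocytes held at least 3 of the 9 genes, and 72.0% of the member UMIs of the class. A UMI of any member was found in 27.0% of Neg (13.8 to 44.1), 32.8% of AA (21.0 to 46.3) and 17.7% of AA+Ab melanocytes. Dermal papilla cells, which instruct the follicle, had 0, 19 and 11 member UMIs in 18, 88 and 41 cells.

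The members were not drawn from the same cells. In AA, keratinocytes held 84.7% of *Usp18* UMIs, 77.8% of *Oasl2*, 71.2% of *Ifit3*, 53.0% of *Rsad2* and 10.8% of *Oasl1*, while they held 83.9% of all UMIs. Dendritic cells and macrophages, with 0.542% of the AA UMIs, held 83.0% of *Oasl1* and 29.3% of *Rsad2*. They also held 51.2% of *Oasl1* in Neg and 50.4% in AA+Ab, so in each library this small class was the largest source of *Oasl1*. The class also held B-cell transcripts, and which of its cell types gave these UMIs was not tested. In Neg, T cells were the largest source of *Rsad2* with 37.1%, and 42 of those 43 UMIs were in the single cell described above.

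Cells that held 1 member often held others. Of AA keratinocytes with a UMI of *Ifit1*, 63.0% also had *Isg15*, against 7.43% of those without *Ifit1*. The same shares were 78.3% and 8.27% for *Ifit3*, 67.4% and 8.33% for *Rsad2*, 35.1% and 6.26% for *Oasl2*, and 37.2% and 7.15% for *Irf7*. *Usp18* was the weakest partner, with 14.3% against 7.07% in AA, and 5.70% against 5.53% in Neg. Median depth of the AA cells with and without *Ifit1* was 12583.5 and 11606 UMIs. Over 76 groups of library and cluster with at least 30 cells, the Pearson correlation of a member with the mean log2(CPM + 1) of the other 8 was highest for *Ifit1* (0.856) and *Rsad2* (0.774) and lowest for *Usp18* (0.335). The groups share libraries, so these values are a description.

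Outside the members, the genes whose pattern over these 76 groups was most like their mean log2(CPM + 1), among 15162 genes, were *Gbp9* (Pearson r 0.872), *Gbp3* (0.852), *Trim30a* (0.840), *Gbp5* (0.835), *Cd274* (0.835), *Slfn2* (0.825), *Rtp4* (0.804), *Oas3* (0.798), *H2-T24* (0.785) and *Lst1* (0.775). *Trim30a*, *Rtp4* and *Oas3* are in the list of other antiviral effectors, and *Gbp3*, *Gbp5* and *Cd274* in the list of genes used mainly as interferon gamma readouts.

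When the interferon genes were kept in the clustering, 1 of 30 clusters was led by *Iigp1*, *Gbp2b*, *Gbp2*, *Ifi27l2a*, *Ifi47* and the members *Ifit1*, *Oasl2* and *Isg15*. It held 6 Neg, 276 AA and 42 AA+Ab cells, 0.0965%, 2.90% and 0.466% of the cells clustered. In the clustering without these genes, 163 of the 276 AA cells were basal and 18 were suprabasal. The cluster held 18.0% of the AA member UMIs, and without it the ratio of AA over Neg was 2.21 (2.13 to 2.30) and that of AA+Ab over AA 0.436 (0.420 to 0.453). Since the members helped to draw this cluster, their level in it is a description.

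Other genes of the pathway were read from lists, also chosen with earlier results known, beside the same background. That was 3.17% of genes higher and 3.71% lower for AA over Neg. For AA+Ab over AA it was 2.58% higher and 4.09% lower. Of 25 other antiviral effectors with enough UMIs, 16 were higher in AA than in Neg by 2-fold or more and none lower, with a median ratio of 2.13. The largest ratios were those of *Ifi44* (12.1, 8.87 to 17.0), *Oas3* (10.9, 7.12 to 17.5) and *Rtp4* (7.45, 6.12 to 9.15), and the smallest those of *Shisa5* (1.19) and *Oas1c* (1.00). In AA+Ab against AA, 14 of 26 were lower by 2-fold or more and none higher. Against Neg, 2 of 25 were higher by 2-fold or more in AA+Ab (background 2.03%). They were *Oas2* (2.21, 1.24 to 4.12, from 44 and 17 UMIs) and *Oas3* (2.26, 1.38 to 3.83, from 61 and 23 UMIs). The list of nucleic acid sensors and their signalling genes, which start interferon production, differed less. Of its genes, 4 of 16 were past 2-fold in AA over Neg, with a median ratio of 1.22. *Zbp1*, a sensor of Z-form nucleic acid that can start cell death, was at 0.873, 5.52 and 1.07 CPM, a ratio of 6.32 (5.14 to 7.84), followed by the RNA sensor genes *Ddx60* at 3.26 and *Dhx58* at 2.13. *Irf3* and *Irf5*, factors that are mainly switched by phosphorylation, had ratios of 1.04 each.

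Receptor and signalling genes followed in the same order of libraries only in part. *Irf9* and *Stat2*, which encode partners in the complex that binds the ISRE, were 2.12 and 2.04 times as high in AA as in Neg. The receptor genes *Ifnar1* (18.5, 19.3 and 17.2 CPM) and *Ifnar2* (25.1, 31.0 and 25.1 CPM) differed by less than 2-fold, and *Ifngr2* (0.892) and *Il10rb* (0.887) had the smallest ratios of AA over Neg. The median ratio of the 14 genes of this list was 1.33 for AA over Neg and 0.811 for AA+Ab over AA. Genes used mainly as interferon gamma readouts had 12 of 23 higher and 1 lower by 2-fold or more in AA over Neg, with a median ratio of 2.31. *Iigp1*, a GTPase of the IRG family, had 0.822, 52.5 and 5.19 CPM (63.8, 52.3 to 78.7), the chemokine *Cxcl9* 0.965, 18.5 and 1.96 CPM (19.1, 15.9 to 23.3), and *Igtp* a ratio of 6.31. *Tap1* had 1.34, and *Ido1*, from 26, 4 and 9 UMIs, 0.135.

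**Figure D5:**
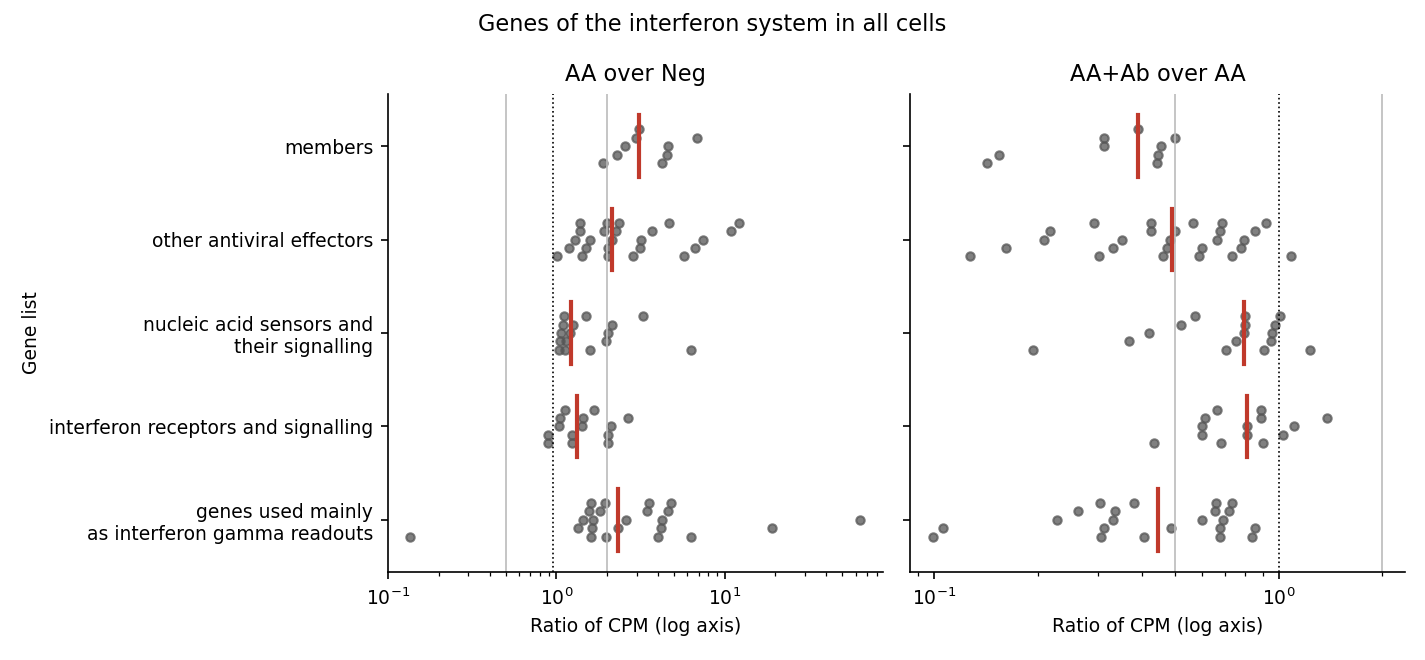
Ratio of CPM (log axis) in all cells for the genes of each list with at least 20 UMIs over both libraries, for AA over Neg (left) and AA+Ab over AA (right), 1 point a gene. Red bars mark the median of a list, the dotted line the median of all genes tested (0.957 and 1.00), and grey lines ratios of 0.5 and 2. The median of the 9 members, 3.10 on the left and 0.391 on the right, lies farther from 1 than that of the other 4 lists plotted.

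The interferon genes themselves were nearly absent, apart from *Ifnk* and *Ifng*. *Ifnb1*, the gene of interferon beta, had 0, 3 and 6 UMIs. Of these, 2 in AA and all 6 in AA+Ab were in the dendritic cell and macrophage class, which also held B-cell transcripts. *Ifna13* had 2 UMIs in Neg and *Ifna2* 1 in AA+Ab, the latter in the AA+Ab cell of mixed keratinocyte and immune transcripts described above (86 member UMIs). An AA cell of the dendritic cell and macrophage class with 1 UMI of *Ifnb1* held 41 member UMIs and another held 0. The AA+Ab cell with 5 UMIs of *Ifnb1* held 13. *Ifnk*, the interferon kappa of keratinocytes, had 178, 182 and 263 UMIs (1.49, 1.34 and 1.88 CPM), a ratio of 0.899 (0.727 to 1.11) for AA over Neg, and so did not follow the order of the members. *Ifng*, the interferon gamma gene, had 0.503, 5.56 and 1.94 CPM, 11.0 times as high in AA as in Neg (8.49 to 14.6), and 0.349 (0.303 to 0.401) in AA+Ab over AA. Within T cells it had 73.9, 441 and 246 CPM. At this depth a gene with 0 UMIs in a library cannot be called absent from the skin.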

How the data were processed

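The deposited values are raw UMI counts per gene and cell barcode, made by the authors with Cell Ranger 7.2.0 from reads aligned to mm10 (FastQC 0.11.7 is also named in their processing notes). The annotation release and the counting of intronic reads are not given in the sources used here. Each group was 1 library of pooled skin from 7 to 8 mice, so no test between groups was run and no replicate error exists. The filter kept cells with at most 10% of UMIs from mitochondrial genes and at least 200 genes (Python 3.11.15, numpy 2.4.6, scipy 1.17.1, pandas 2.3.3). Library sums keep cells scored as doublets and cell classes leave them out. The doublet score placed 130 of 300 artificial doublets of the Neg library among its highest scores.

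Counts were summed per library or class and divided by their total UMIs. Ratios of CPM carry exact conditional and shares of cells Clopper-Pearson 95% intervals, which treat UMIs as independent. In place of a test, a gene was counted as higher or lower at a fold of 2 among genes with at least 20 UMIs over both libraries. A library at 0 was set to 3 UMIs for a bound. Cells were clustered by the Leiden method (leidenalg 0.10.2, resolution 0.8, 30 principal components, 20 neighbours, 2000 variable genes without 110 interferon genes). A class was named from fixed markers found in at least 25% of cells at 2-fold or more, with thresholds set after the clusters were seen. The members and lists were chosen with earlier results of these data known. All 9 members are described, and of each other list the 3 genes with the largest and 2 with the smallest ratio of AA over Neg are named (of the interferon genes, every gene with a UMI), as are the 10 genes most like the members over clusters. Other genes named were chosen after their values were seen. Some genes and 1 keratinocyte class are not reported here. Alternatives changed the cell filters, the doublets, the weighting of cells and classes, the depth, the fold and the clustering. The script was checked on simulated counts.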

Additional observations from a re-analysis of the deposited data

Results flagged for a closer look

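For AA over Neg, 2 classes had a ratio of the summed members on the other side of 1 from keratinocytes (2.69), with intervals from counting error that excluded 1. T cells had 0.484, which turned to 1.69 without the highest cell of each library. Keratinocytes led by *Krt24*, *Zfpm2* and *Tnc* had 0.431, which became 0.693 (0.312 to 1.5) without it.

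For AA+Ab over Neg, 4 classes lay above 1 where keratinocytes lay below it (0.839). The ratio was 1.57 in dendritic cells and macrophages, 2.12 in keratinocytes led by *Trabd2b*, *Fam13a* and *Enox1*, 1.29 in monocytes and neutrophils, and 3.81 in an unnamed class led by *Krt18*, *Plvap* and *Thrsp*. Without the highest cell of each library these ratios were 1.5, 2.29, 1.63 and 3.24. In dendritic cells and macrophages the AA+Ab cell left out held 86 member UMIs, and another with 68 stayed in. A UMI of any member was found in 32.1% of the Neg and 23.4% of the AA+Ab cells of that class, the opposite order. None of these differences between classes was tested, since each group was 1 library.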

How the results depend on the processing

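No paired analysis was possible because each group was 1 library. The AA-over-Neg ratio of the summed members, 2.55, became 2.45 with a mitochondrial limit of 5%, 1.92 as a mean over cells, 1.77 thinned to 1000 UMIs, 2.44 with classes weighted to Neg and 2.43 without the highest 1% of cells. AA+Ab over AA, 0.381, became 0.363 with a minimum of 1000 genes, 0.601 as a mean over cells and 0.605 thinned. AA+Ab over Neg, 0.971, became 1.16, 1.07, 0.920 and 0.916 as a mean over cells, thinned, weighted to Neg and without the highest 1% of cells. The count of 8 members higher in AA than in Neg ranged from 6 to 9 over 11 alternatives. The count of 8 lower in AA+Ab than in AA became 5 as a mean over cells and 4 thinned. The 1 member higher in AA+Ab than in Neg became 0 with a minimum of 1000 genes, weighted to Neg, or without the highest cell or the highest 1% of cells, 3 thinned and 2 at a fold of 1.5.

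With classes taken from the marker UMIs of each cell, keratinocytes had 2.50 for AA over Neg and 0.337 for AA+Ab over AA. T cells then had 2.66 for AA over Neg, 0.40 for AA+Ab over AA and 1.06 for AA+Ab over Neg, and dendritic cells and macrophages 4.30 for AA over Neg and 2.85 for AA+Ab over Neg. Without the highest cell of each library, T cells had 1.69 for AA over Neg and 1.84 for AA+Ab over Neg, and dendritic cells and macrophages 3.19 for AA over Neg and 0.470 for AA+Ab over AA. At resolution 1.5 T cells had 0.617 for AA over Neg. The T-cell direction rests on 1 Neg cell and on how the class is drawn. Leaving out the highest cells was chosen after seeing the data, and the cause of these changes was not tested.

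With pooled mice and 1 library per group, the spread between mice is unknown, and intervals that treat UMIs as independent are too narrow for genes held by few cells. The depth sets a limit for *Ifit3*, *Rsad2* and *Oasl1*, found in under 1% of cells in every library, and for classes with under 100 cells.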

Other observations

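Cells with at least 3 of the 9 genes held 21.7% of the member UMIs in Neg, 48.6% in AA and 23.4% in AA+Ab. Among keratinocytes such cells were 0.613% of Neg, 3.72% of AA and 0.507% of AA+Ab cells, and those with at least 5 of the genes numbered 3, 75 and 8. These values describe 3 libraries and were not tested.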
